A study of Sus scrofa with 14 samples.

Results

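The HOX genes are the homeobox genes whose pig symbol is HOXA, HOXB, HOXC or HOXD followed by a number, and they were taken by symbol from the deposited expression tables. They numbered 34 of the 21280 genes listed, with 8 in the HOXA cluster, 9 in HOXB, 9 in HOXC and 8 in HOXD. They were described in 2 fat depots, the greater omentum (GOM), a visceral depot, and the upper layer of backfat (ULB), a subcutaneous depot, of adult female wild boars and Bama pigs aged 2 years. The labels name no transgene and no agent. The wild boars had been taken into captivity when young, the Bama pigs came from 1 Bama Xiang line, and all were fed alike, so that breed and origin cannot be told apart.

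Each assay had 7 libraries, 2 of wild boar GOM, 2 of Bama pig GOM, 2 of wild boar ULB and 1 of Bama pig ULB, which is the library numbered 2. The assays were RNA-seq and Hi-C, in which DNA ends that lie close together in the nucleus are ligated and sequenced. With at most 2 libraries in a group, p-values measure only the spread between these samples, and the lone Bama pig ULB library has no spread of its own. Both depots were taken from the same pigs, so libraries of the depots share animals. The main RNA tests and the tests of PC1 below treat the libraries as independent. RNA came from the tissue, so fewer cells of a type and less RNA per cell cannot be told apart. The Hi-C libraries were made from the adipocyte layer left after centrifuging fixed tissue, so RNA and PC1 at a gene are not from the same mixture of cells.

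HOX genes encode transcription factors with a DNA-binding homeodomain. They lie in 4 clusters, and a gene's number is its paralog group, which follows its place along the cluster. In the embryo, low-numbered genes are used towards the head and high-numbered genes towards the tail, and adult tissues, fat depots and their progenitor cells among them, keep a HOX pattern that reflects where in the body they formed. PBX and MEIS proteins bind DNA together with HOX proteins, Polycomb complexes keep HOX genes silent, trithorax proteins oppose them, and retinoic acid induces HOX genes in the embryo.

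RefSeq gene models of Sscrofa11.1, the build of the deposited files, placed 32 of the 34 genes. HOXA lay on chromosome 18, HOXB on chromosome 12 from 24784953 to 24950661, HOXC on chromosome 5 from 19151096 to 19268267 and HOXD on chromosome 15 from 81893997 to 81990026. The clusters also hold RefSeq HOX genes, such as HOXA4, HOXA6, HOXA13 and HOXD13, that are not among the 34. HOXB4 and HOXD4 were not placed. HOXA5 lies within the gene model of HOXA3, and the model of HOXD9 overlaps those of HOXD10 and HOXD11, and antisense RNAs are known within HOX clusters. The RNA was counted without use of strand, so reads that such transcripts share cannot be told apart.

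The sequences below are the 250 bases before the RefSeq start of 3 genes whose difference between depots lasted under at least 12 of the 13 alternative settings tried. HOXD8 and HOXC9 were higher in ULB and HOXB6 was higher in GOM. Each runs 5′ to 3′ on the gene's strand. Capitals mark a match on either strand to the CCAAT box (CCAAT) or the GC box (GGGCGG, which reads CCGCCC on the other strand), and the other motifs searched had no match in these 3.
HOXD8, chr15:81930673-81930922, plus strand: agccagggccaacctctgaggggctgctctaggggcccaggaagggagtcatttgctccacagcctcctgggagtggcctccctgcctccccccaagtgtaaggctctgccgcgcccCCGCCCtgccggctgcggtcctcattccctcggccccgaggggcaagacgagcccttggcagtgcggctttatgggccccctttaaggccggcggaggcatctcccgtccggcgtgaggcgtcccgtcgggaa
HOXC9, chr5:19212240-19212489, plus strand: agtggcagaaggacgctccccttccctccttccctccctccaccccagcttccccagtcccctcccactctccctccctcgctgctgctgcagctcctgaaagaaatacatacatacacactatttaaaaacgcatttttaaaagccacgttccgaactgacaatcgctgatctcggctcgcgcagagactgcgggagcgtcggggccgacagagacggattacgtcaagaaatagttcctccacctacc
HOXB6, chr12:24853495-24853744, minus strand: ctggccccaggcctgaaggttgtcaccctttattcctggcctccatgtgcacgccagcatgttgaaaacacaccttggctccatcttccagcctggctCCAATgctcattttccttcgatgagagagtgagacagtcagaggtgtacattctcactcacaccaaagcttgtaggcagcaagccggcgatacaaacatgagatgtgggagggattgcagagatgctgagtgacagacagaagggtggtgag

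HOXD8 held 1 GC box, HOXB6 held 1 CCAAT box and HOXC9 held none of the motifs. Over 18719 protein-coding RefSeq promoters of the same length on the autosomes, 46.1% held a GC box and 31.7% a CCAAT box, and over the 32 placed HOX genes 9 held a GC box and 11 a CCAAT box. The TATA box (TATAAA) was in 5 of the 32 and in 9.64% of all, the PBX-HOX motif (TGATNNAT) in 3 and in 5.63%, and the retinoic acid receptor motif (AGGTCA) in 2 and in 12.2%. GC content was 69.6% for HOXD8, 55.6% for HOXC9 and 52.8% for HOXB6, with a median of 57.2% over the 32 HOX promoters and of 58.0% over all. The number of CpG dinucleotides was 17 in HOXD8, 15 in HOXC9 and 4 in HOXB6, beside a median of 11 over the HOX promoters and 12 over all.

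Library depth ran from 10833153 to 18627076 estimated counts. Adipocyte genes were high in every library, with 7 markers summing to 9115 to 16850 TPM in GOM and 13460 to 17020 in ULB. Of the mesothelial markers, genes of the lining that covers the omentum, UPK1B, BNC1, WT1 and CALB2 were measured of 8 listed, and they summed to 78.6 to 201 TPM in GOM and 0.586 to 3.73 in ULB. Of the muscle markers, ACTA1 and CKM, 2 of 4 listed, summed to 184.7 TPM in wild boar ULB 1 and to between 2.02 and 5.32 in the other libraries. The 5 liver genes summed to 496.9 TPM in Bama pig GOM 1 and 1282 in Bama pig GOM 2, against 169.7 to 249.4 in the other libraries. APOA1 supplied 146.2 to 226.6 TPM of this in every library. The others, ALB, APOB, TTR and FGB, were higher in Bama pig than in wild boar in both depots. In ULB, ALB had 77.7 TPM in the Bama pig against 1.95 and 4.42 in wild boars. Markers of the B and T cell, macrophage, endothelial, fibroblast, epidermal and pancreatic lists had no member called between depots, and KRT1 was at 0 throughout.

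TPM is a transcript level scaled for gene length and for the total of the library, so it can be compared between genes. The summed level of all HOX genes overlapped between depots, with 69.5 to 172.4 TPM summed over the 34 genes in GOM and 141.5 to 161.2 in ULB. The clusters behind these sums differed. In GOM the HOXB cluster supplied most of the HOX transcripts, and in ULB the HOXD cluster did.

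The HOXB cluster made up 59.1% and 55.1% of HOX TPM in GOM of wild boars with 56.8% and 63.5% in that of Bama pigs, against 14.6% and 12.4% in ULB of wild boars with 15.7% in that of the Bama pig. The HOXD cluster made up 13.1% and 17.1% in GOM of wild boars with 13% and 14.2% in that of Bama pigs, against 60.4% and 63.8% in ULB of wild boars with 50.7% in that of the Bama pig. The depots did not overlap in either share, and both breeds showed the same order. The HOXC share was 3.19% to 7.17% in GOM and 9.28% to 16.2% in ULB, and the HOXA share was 19.2% to 24.2% in GOM and 13.9% to 17.4% in ULB. As levels, summed HOXD TPM was 16.5 ± 4.99 (SD, n = 4) in GOM and 86.7 ± 13.3 (SD, n = 3) in ULB, and summed HOXB TPM was 69.9 ± 26.7 (SD, n = 4) and 21.1 ± 3.10 (SD, n = 3). Summed HOXA TPM overlapped, with 16.8 to 39.7 in GOM and 19.8 to 25.4 in ULB. These sums describe the members and were not tested.

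**Figure D1:**
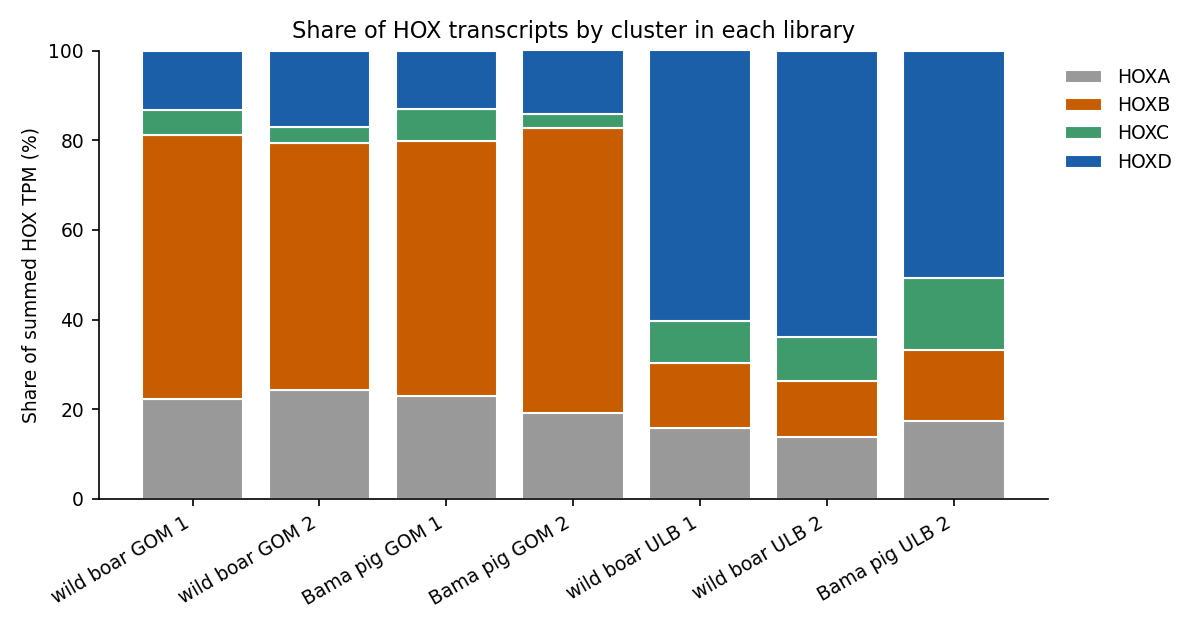
Stacked bars give, for each of the 7 RNA-seq libraries on the horizontal axis, the share of summed HOX TPM in percent that each cluster supplied. HOXB takes 55.1% to 63.5% of the bar in the 4 GOM libraries, and HOXD takes 50.7% to 63.8% in the 3 ULB libraries.

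By paralog group, the summed TPM of groups 7, 8 and 9 did not overlap between depots. Group 7 (HOXA7 and HOXB7) summed to 24.3 to 35.2 TPM in GOM and 17.2 to 22.8 in ULB. Its members went opposite ways. HOXB7 was lower in ULB (18.19 to 27.63 in GOM, 9.429 to 14.46 in ULB), and HOXA7 was slightly higher (6.143 to 7.734 and 7.769 to 11.37). Group 8 (HOXB8, HOXC8 and HOXD8) summed to 9.52 to 17.3 TPM in GOM and 56.7 to 81.7 in ULB, and group 9 (HOXA9, HOXC9 and HOXD9) to 1.64 to 2.43 in GOM and 7.22 to 16.0 in ULB. Most of the group 8 sum in ULB was HOXD8, at 52.8 to 79.1 TPM. HOXB8 went the other way, with 1.01 to 6.24 in GOM and 0.141 to 0.218 in ULB. In group 9, HOXA9 overlapped between depots. Group 2 (HOXA2 and HOXB2), with 3.30 to 14.4 TPM in GOM and 2.26 to 4.02 in ULB, overlapped between depots, as did group 6, with 9.17 to 34.3 and 5.20 to 12.8. Groups 9 to 13 together, the part of the clusters used towards the tail, held, as far as their genes are members, 1.79% to 4.43% of HOX TPM in GOM and 6.46% to 12.1% in ULB. HOXA4, HOXA6, HOXB9, HOXA13 and HOXD13 are not members. The sums and shares of their clusters and groups, and the HOX total, therefore leave them out. Groups 5 to 8 held most of the HOX TPM in both depots, 64.3% to 76.7% in GOM and 71.7% to 80.1% in ULB, and groups 1 to 4 held 19.9% to 33.8% and 11.7% to 21.8%. Group 12 was at 0 in all libraries.

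The order of the members also changed. In GOM the highest mean levels were those of HOXB7 (22.3 ± 4.82 TPM), HOXB6 (21.1 ± 10.9), HOXA5 (12.2 ± 5.65) and HOXD8 (9.91 ± 1.89; SD, n = 4), and neighbours in this order overlapped. In ULB, HOXD8 stood first with 70.1 ± 15.0 TPM (SD, n = 3), and its lowest library, at 52.8, lay above the 14.5 of the highest library of HOXB7, the next gene. HOXB7 (11.5 ± 2.63), HOXD4 (9.69 ± 1.95), HOXA7 (9.15 ± 1.95) and HOXA5 (8.82 ± 1.12) followed in ULB with levels that overlapped. HOXD8 alone supplied 6.02% to 13.6% of HOX TPM in GOM and 37.3% to 55.1% in ULB.

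**Figure D2:**
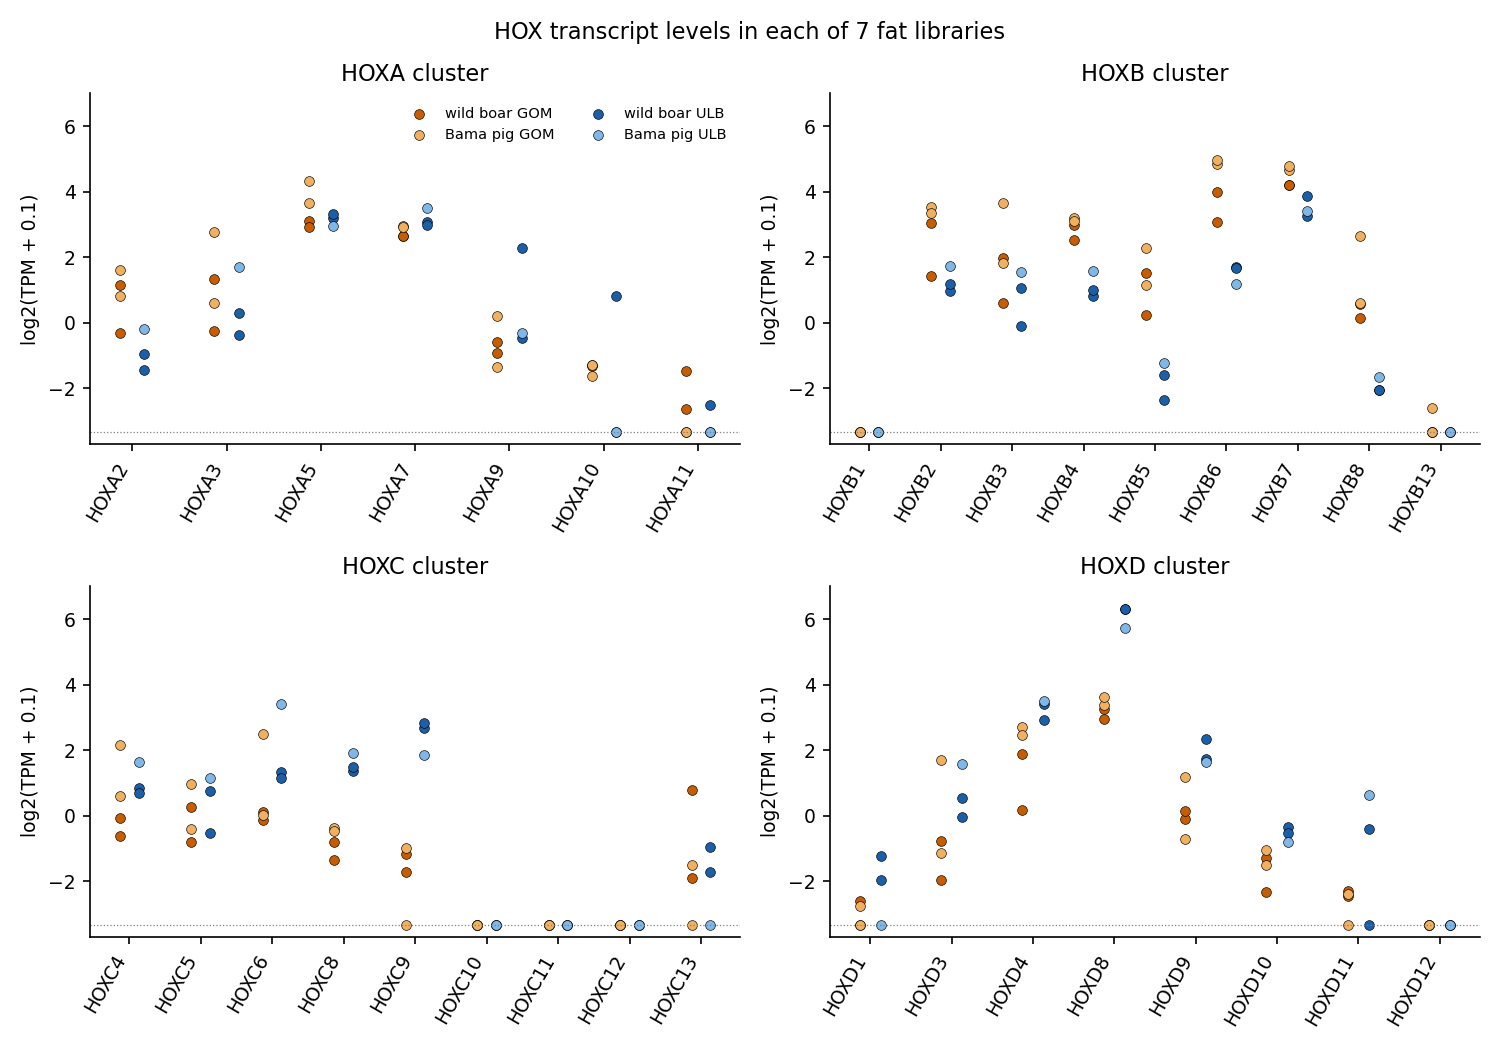
Points give log2(TPM + 0.1) on the vertical axis for the HOX genes named on the horizontal axis, in order of paralog group within 4 panels, 1 per cluster; orange points are GOM and blue points ULB, darker for wild boar and lighter for Bama pig, and the dotted line is a TPM of 0. The blue points lie above all orange points for HOXD8, HOXC8 and HOXC9 and below all of them for HOXB4 to HOXB8.

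The difference between depots was tested over 15738 genes by the quasi-likelihood F test of edgeR, on rounded counts and with breed as a covariate. Genes entered when their TPM was above 0.1 in every library of at least 1 depot, and a call needed an adjusted p (Benjamini-Hochberg) below 0.05 together with a change of more than 1 on the log2 scale in either direction. Of the 34 HOX genes 24 entered, 20 of them through both depots, HOXB5 and HOXA10 through GOM alone, and HOXC9 and HOXD10 through ULB alone. A gene that enters through the depot where it is high is more likely to differ. The test called 7 of the 24, beside 4.33% of all genes tested, with 3 higher in ULB (1.55% of all) and 4 higher in GOM (2.78% of all). Those higher in ULB were HOXD8, HOXC8 and HOXC9, and those higher in GOM were HOXB4, HOXB5, HOXB6 and HOXB8. An unadjusted p below 0.05 was found for 13 of the 24, HOXB5 and HOXC9 among them, and the share over all genes was not counted. DESeq2 called 11 of the 24, beside 8.66% of all genes.

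Of the clusters, HOXB had a log2 fold change (ULB minus GOM) below 0 for all 7 genes tested, and HOXC and HOXD had one above 0 for all 5 genes tested in each. These directions were the same with upper-quartile scaling and with DESeq2's size factors. The median log2 fold change was -1.71 for HOXB, 1.61 for HOXC, 1.65 for HOXD and -0.23 for HOXA, where 3 genes were above and 4 below 0, beside -0.04 over all genes tested. In TPM, the 3 ULB libraries were all above the 4 GOM libraries for 7 of the 24 genes (2.93% of all genes tested) and all below for 5 (9.26% of all). These directions, medians and counts include HOXB5, which entered through GOM alone, and HOXC9 and HOXD10, which entered through ULB alone. The filter favoured the direction of these genes, so they add no support to it.

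HOXD8 (ENSSSCG00000040349, chromosome 15, 81930923 to 81935528), a central HOXD gene, had 7.65 and 9.42 TPM in GOM of wild boars with 10.4 and 12.2 in that of Bama pigs. In ULB it had 79.1 and 78.5 in wild boars and 52.8 in the Bama pig. Every ULB library was above every GOM library. The log2 fold change was 2.87 (SE 0.25), which is 7.31-fold, with an adjusted p of 0.000438 in edgeR's test. It was the one HOX gene called within each breed, at 2.97 (SE 0.35) and an adjusted p of 0.00787 among wild boars and at 2.73 (SE 0.39) and an adjusted p of 0.0475 among Bama pigs, where 1.53% and 0.203% of all genes were called by edgeR in either direction and 0.432% and 0.0953% as higher in ULB. The value among Bama pigs has 1 ULB library, whose spread was taken from the other groups. Its call lasted under all 13 alternatives, between 2.73 and 3.00.

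HOXC9 (ENSSSCG00000034474, chromosome 5, 19212490 to 19215859) was near the detection limit in GOM, with 0.340 and 0.206 TPM in wild boar and 0 and 0.403 in Bama pig. In ULB it reached 6.36 and 6.96 in wild boar and 3.49 in Bama pig. The depots did not overlap, and the GOM values rest on 0 to 4 estimated counts per library against 34.4 to 78.7 in ULB. The log2 fold change was 4.44 (SE 0.71), with an adjusted p of 0.00808 in edgeR's test. Without the Bama pig ULB library the adjusted p was 0.0795.

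HOXC8 (ENSSSCG00000038644, chromosome 5, 19222124 to 19225734), the neighbour of HOXC9 in the cluster, had 0.472 and 0.291 TPM in GOM of wild boars with 0.666 and 0.616 in that of Bama pigs. In ULB it had 2.48 and 2.71 in wild boars and 3.67 in the Bama pig. Both genes were thus low in GOM, and their ULB values did not reach down to the GOM range. The log2 fold change of HOXC8 was 2.71 (SE 0.44), with an adjusted p of 0.0083 in edgeR's test, of 0.0983 without the Bama pig ULB library and of 0.0862 with the wild boar libraries alone.

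HOXB6 (ENSSSCG00000017539, chromosome 12, 24849741 to 24853494), a central HOXB gene, had 15.9 and 8.35 TPM in GOM of wild boars with 28.7 and 31.4 in that of Bama pigs. In ULB it had 3.17 and 3.07 in wild boars and 2.17 in the Bama pig. The GOM libraries spread widely, with wild boar below Bama pig, and all were above the ULB libraries. The log2 fold change was -2.58 (SE 0.39), which is 5.97-fold lower in ULB, with an adjusted p of 0.0061 in edgeR's test and of 0.0642 with the wild boar libraries alone. The ratio of HOXD8 to HOXB6 TPM in the same library was 0.361 to 1.13 in GOM and 24.4 to 25.6 in ULB.

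HOXB5 (ENSSSCG00000017540, chromosome 12, 24845224 to 24849639) had 2.77 and 1.07 TPM in GOM of wild boars with 4.77 and 2.11 in that of Bama pigs, and 0.233 and 0.0958 in ULB of wild boars with 0.330 in that of the Bama pig. HOXB8 (ENSSSCG00000017537, chromosome 12, 24865985 to 24879706) had 1.39 and 1.01 in GOM of wild boars with 6.24 and 1.42 in that of Bama pigs, and 0.141 and 0.143 in ULB of wild boars with 0.218 in that of the Bama pig. Both were low in ULB, at 2 to 6 estimated counts per library, and the groups did not overlap. The log2 fold change was -3.32 (SE 0.65, adjusted p 0.0204) for HOXB5 and -3.40 (SE 0.69, adjusted p 0.0235) for HOXB8 in edgeR's test. Leaving out wild boar GOM 1, either wild boar ULB library or the Bama pig ULB library ended both calls, with adjusted p from 0.0599 to 0.0884 for HOXB5 and from 0.0608 to 0.131 for HOXB8, and with the wild boar libraries alone it was 0.0831 and 0.0755.

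HOXB4 (ENSSSCG00000017535) had 7.82 and 5.70 TPM in GOM of wild boars with 9.15 and 8.57 in that of Bama pigs, and 1.68 and 1.88 in ULB of wild boars with 2.89 in that of the Bama pig. Its log2 fold change of -1.71 (SE 0.42) had an adjusted p of 0.0492 in edgeR's test, just inside the threshold. The call was lost whichever of the 7 libraries was left out, with adjusted p from 0.053 to 0.192, and with the replicate number of each breed as a block, where it was 0.0695.

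Among the highest genes of each cluster that were not called, HOXB7, the highest HOX gene of GOM, had 18.3 and 18.2 TPM in GOM of wild boars with 25.2 and 27.6 in that of Bama pigs, and 14.5 and 9.43 in ULB of wild boars with 10.6 in that of the Bama pig. The depots did not overlap, and the log2 fold change was -0.82 (SE 0.31, adjusted p 0.173, edgeR). HOXB2, a low-numbered HOXB gene, had 8.18 and 2.60 TPM in GOM of wild boars with 11.4 and 10.2 in that of Bama pigs, and 1.85 and 2.17 in ULB of wild boars with 3.24 in that of the Bama pig. Its depots overlapped through wild boar GOM 2, and its log2 fold change was -1.45 (SE 0.41, adjusted p 0.0778, edgeR).

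HOXD4 had 3.57 and 1.03 TPM in GOM of wild boars with 6.404 and 5.43 in that of Bama pigs, and 10.4 and 7.48 in ULB of wild boars with 11.2 in that of the Bama pig. HOXD9 had 0.838 and 0.999, 2.14 and 0.517, 4.92 and 3.21, and 3.03 in the same order. For both, all ULB libraries were above all GOM libraries, while the log2 fold changes of 1.65 (SE 0.47, adjusted p 0.0793) and 1.84 (SE 0.54, adjusted p 0.0871) did not pass edgeR's test. HOXC6 had 0.991 and 0.819 TPM in GOM of wild boars with 5.51 and 0.923 in that of Bama pigs, and 2.42 and 2.13 in ULB of wild boars with 10.6 in that of the Bama pig, and its groups overlapped (log2 fold change 1.61, SE 0.55, adjusted p 0.138, edgeR). HOXC4 had 0.857 and 0.553, 4.34 and 1.42, 1.72 and 1.52, and 3.03 in that order and also overlapped (0.83, SE 0.48, adjusted p 0.362).

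The 3 highest HOXA genes had the smallest log2 fold changes among the highest genes of the 4 clusters. HOXA5, which is known to be expressed in adipose tissue, had 8.56 and 7.55 TPM in GOM of wild boars with 20.0 and 12.6 in that of Bama pigs, and 9.03 and 9.82 in ULB of wild boars with 7.61 in that of the Bama pig (log2 fold change -0.23, SE 0.25, adjusted p 0.643, edgeR). HOXA7 had 6.21 and 6.14, 7.73 and 7.52, 8.31 and 7.77, and 11.4 in that order, the ULB libraries lying just above the GOM libraries (0.53, SE 0.40, adjusted p 0.479). HOXA3 had 2.44 and 0.734, 6.71 and 1.43, 0.672 and 1.14, and 3.13, and the depots overlapped (-0.49, SE 0.60, adjusted p 0.684). HOXA9 and HOXA10, named after their values were seen, were highest in wild boar ULB 1, the library with high muscle markers. HOXA9 had 4.74 TPM there and 0.289 to 1.05 in the other libraries, and HOXA10 had 1.65 there and 0 in the other ULB libraries. The part of the muscle RNA in these values was not tested. Without that library the HOXA9 and HOXA10 values of ULB lay within or below the range of GOM.

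**Figure D3:**
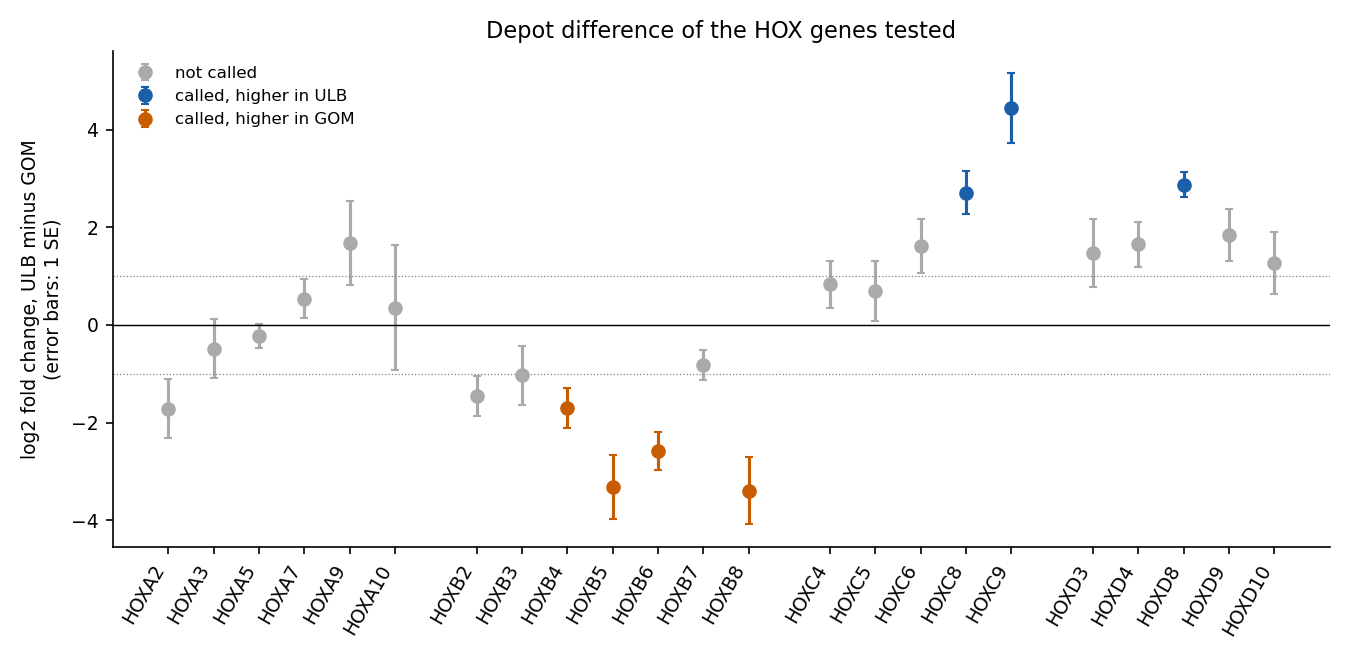
Points give the edgeR log2 fold change of ULB minus GOM for the tested HOX genes named on the horizontal axis, grouped by cluster and ordered by paralog group; bars are 1 SE, dotted lines mark an absolute log2 fold change of 1, blue points were called higher in ULB, orange points higher in GOM and grey points were not called. All 7 HOXB points lie below 0, and all 5 HOXC and all 5 HOXD points lie above 0. Among them HOXB5 entered the test through GOM alone, and HOXC9 and HOXD10 through ULB alone.

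The other genes tested were not called, and among them the log2 fold change was -1.72 for HOXA2, -1.03 for HOXB3, 0.70 for HOXC5, 1.47 for HOXD3 and 1.27 for HOXD10. Of the 10 members that did not enter the test, HOXB1, HOXC10, HOXC11, HOXC12 and HOXD12 had no counts in any library, which allows up to 3 counts in each. HOXA11, HOXB13, HOXC13, HOXD1 and HOXD11 had counts in some libraries, and the highest TPM among these was 1.64, for HOXC13 in wild boar GOM 1. The limit of 3 covers counting error only.

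The breeds were compared within each depot. In GOM, edgeR called none of the 25 HOX genes tested, beside 4 of 16615 genes (0.0241%), and none had an unadjusted p below 0.05. DESeq2 called 167 genes and no HOX gene. In ULB, edgeR called none of 24, beside 0.0508% of all genes, and HOXC6 alone had an unadjusted p below 0.05, at a log2 fold change of -2.36 (wild boar minus Bama pig, adjusted p 0.315). DESeq2 called 364 genes there and no HOX gene. The median log2 fold change over the HOX genes was -0.11 in GOM and -0.71 in ULB, where it rests on a single Bama pig library. Over all genes tested it was -0.013 in GOM and 0.038 in ULB.

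Whether the depot difference differed between breeds was tested with an interaction term. EdgeR called none of the 24 HOX genes and none of the 15738 genes (0.0%), and none of the 24 had an unadjusted p below 0.05. DESeq2 called 42 genes and no HOX gene. For HOXD8 the interaction (wild boar minus Bama pig, log2 scale) was 0.24 (SE 0.52), for HOXC9 it was -0.20 (SE 1.25) and for HOXB6 it was 1.16 (SE 0.67), so that each was less than 2 standard errors from 0.

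Bama pig GOM 1 had the highest GOM level for 17 of the 24 genes tested and Bama pig GOM 2 for 6. The same count was not made over all genes, so it is not shown to be particular to the HOX genes. Bama pig GOM 1 also had the highest GOM sum of the HOX cofactors (227.7 TPM), the Polycomb genes (677.9) and the trithorax and opposing genes (523.0). Bama pig GOM 2 had that of the retinoic acid genes (837.0) and wild boar GOM 1 that of the caudal genes (0.763). Both Bama pig GOM libraries also had the highest liver sums, whose part in these levels was not tested. Without Bama pig GOM 1 the depot test called 3 HOX genes higher in ULB and 3 higher in GOM, with HOXB4 lost.

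Of the genes known to act with or on HOX genes, 4 of the 46 tested were called between depots (8.70%), beside 4.33% of all genes, and 3 of the 4 were retinoic acid genes. The lists were chosen with earlier results of these data known. Among 7 measured HOX cofactors 1 was called, MEIS1, which binds DNA with HOX proteins. MEIS1 had 70.4 and 34.8 TPM in GOM of wild boars with 90.4 and 73.3 in that of Bama pigs, and 13.6 and 11.6 in ULB of wild boars with 10.04 in that of the Bama pig. The groups did not overlap, and the log2 fold change was -2.35 (SE 0.28, adjusted p 0.00195, edgeR). None of 20 Polycomb genes and none of 10 trithorax and opposing genes were called, with medians of -0.18 and -0.16. The largest absolute values among these included RING1 at -0.80 (adjusted p 0.0755) and MEN1 at -0.97 (adjusted p 0.12). Of the caudal genes, which set HOX patterns in the embryo, CDX4 was the one tested, at 0.08 (adjusted p 0.953).

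Of 8 retinoic acid genes tested, 2 were called higher in GOM (2.78% of all genes) and 1 in ULB (1.55% of all). ALDH1A2, which makes retinoic acid from retinal, had 137.8 and 101.0 TPM in GOM of wild boars with 137.0 and 164.1 in that of Bama pigs, and 5.22 and 7.79 in ULB of wild boars with 7.55 in that of the Bama pig. ALDH1A3, another enzyme of this step, had 70.5 and 46.5, 43.7 and 38.2, 24.2 and 17.8, and 14.7 in the same order. CYP26B1, which breaks retinoic acid down, had 0.506 and 0.547, 0.958 and 0.544, 6.99 and 1.23, and 9.45. None of these 3 overlapped between depots. Over all genes tested, ULB was all below GOM for 9.26% and all above for 2.93%. ALDH1A1, a further enzyme of the step from retinal and the most abundant of the list, was not called and overlapped, with 85.6 to 514.2 TPM in GOM and 238.7 to 466.3 in ULB (log2 fold change 0.90, SE 0.48, adjusted p 0.325, edgeR). The log2 fold changes of ALDH1A2, ALDH1A3 and CYP26B1 were -4.18 (SE 0.30, adjusted p 0.000142), -1.39 (SE 0.27, adjusted p 0.0198) and 3.37 (SE 0.60, adjusted p 0.0127) in edgeR's test. The mesothelial markers moved in the same direction as MEIS1, ALDH1A2 and the HOXB genes, with UPK1B, BNC1 and WT1, the 3 tested, all called higher in GOM, and their part in these results was not tested.

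Genes that flank the clusters were read for comparison. SKAP2, next to HOXA, had 61.1 and 40.1 TPM in GOM of wild boars with 118.4 and 86.2 in that of Bama pigs, and 14.5 and 24.8 in ULB of wild boars with 18.9 in that of the Bama pig (log2 fold change -1.73, SE 0.27, adjusted p 0.00661, edgeR). It was the one gene called of 10 tested next to the clusters, beside 4.33% of all genes tested. Beside HOXD, MTX2 had a log2 fold change of 0.34 (adjusted p 0.545) and LNPK of 0.63 (adjusted p 0.25), and beside HOXB, TTLL6 had 2.23 (SE 0.61, adjusted p 0.0738). EVX1 and EVX2, the homeobox genes at the ends of HOXA and HOXD, had no counts in any library.

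The Hi-C data were read at the same clusters. PC1 is the first principal component of the contact matrix, given as a score per 20-kb bin, and a positive value places a bin in compartment A, the more open part of the genome. All 29 bins that touch a HOX cluster, 7 in HOXA, 9 in HOXB, 7 in HOXC and 6 in HOXD, were positive in all 7 libraries. No HOX cluster changed compartment between depots or breeds, and the differences were of degree.

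PC1 was computed for each chromosome on its own, so its scale may differ between clusters. The standard deviation of the ULB minus GOM difference over bins was 5.94 on chromosome 15 (HOXD), 3.23 on 12 (HOXB), 3.21 on 18 (HOXA) and 6.01 on 5 (HOXC). The mean PC1 of the HOXD cluster was 17.2 and 16.7 in GOM of wild boars with 14.1 and 10.2 in that of Bama pigs, against 30.7 and 27.2 in ULB of wild boars with 24.4 in that of the Bama pig. Every ULB library was above every GOM library. The difference was 12.9 (GOM 14.6 ± 3.22, n = 4; ULB 27.5 ± 3.16, n = 3; SD), 12.02 within wild boar and 12.3 within Bama pig. The two-sided exact permutation test gave p = 0.05714, the smallest that 4 libraries against 3 allow, and 0.1143 after adjustment over the 4 clusters, so this design could not reach 0.05. In 5 of the 6 bins all ULB libraries were above all GOM libraries, beside 9.65% of all bins and 10.7% on chromosome 15.

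The higher PC1 in ULB reached past the HOXD genes. Of the 25 bins in the 500 kb on each side, all ULB libraries were above all GOM libraries in 17 on the side of HOXD13 and in 18 on the side of HOXD1, and below in none. The mean of the first side ran from -7.47 to -3.74 in GOM and from 0.15 to 6.14 in ULB, so that its mean lay on opposite sides of 0 in the depots. Most single bins there did not change sign in this way. Those from 81380001 to 81480000 were negative in every library, and those from 81720001 up to the cluster were positive in every library. The mean of the HOXD1 side ran from 5.48 to 15.7 in GOM and from 18.4 to 25.1 in ULB. The bin with the HOXD8 start had a PC1 of 18.4 and 16.1 in GOM of wild boars with 17.0 and 12.6 in that of Bama pigs, and 30.0 and 26.8 in ULB of wild boars with 28.5 in that of the Bama pig. HOXD8, the gene with the strongest call, thus lay in a bin whose PC1 did not overlap between depots. The bin that holds the starts of HOXD9 to HOXD12, of which HOXD12 had no counts, also did not overlap, with 9.91 to 18.8 in GOM and 23.1 to 28.1 in ULB, and neither did that of HOXD1, with 8.49 to 16.5 and 21.3 to 30.7. In the bin of HOXD3 the depots just overlapped, with 12.9 to 24.3 in GOM and 24.1 to 37.0 in ULB.

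The HOXB cluster had a mean PC1 of 21.6 and 21.9 in GOM of wild boars with 19.7 and 20.7 in that of Bama pigs, and 18.5 and 19.4 in ULB of wild boars with 19.3 in that of the Bama pig. The difference was -1.91, the groups did not overlap (p = 0.05714, adjusted 0.1143, exact permutation test), and 2 of 9 bins had all ULB libraries below all GOM libraries (9.17% of all bins). One of them held the starts of HOXB7 and HOXB8, with 20.6 to 25.0 in GOM and 18.8 to 20.2 in ULB, while that of HOXB5 and HOXB6 overlapped, with 20.1 to 23.0 and 16.5 to 21.1. HOXA had 18.2 to 21.4 in GOM and 16.5 to 18.9 in ULB, which overlapped (difference -2.44, p = 0.1143, adjusted 0.1524, exact permutation test). HOXC had 32.5 to 38.1 in GOM and 32.8 to 36.9 in ULB, with a difference of 0.22 (p = 0.9143, exact permutation test). The bin with the starts of HOXC8 and HOXC6 had 34.7 to 41.0 in GOM and 36.6 to 39.5 in ULB, and that of HOXC9 had 33.6 to 42.1 and 31.8 to 43.8, so the PC1 of these genes overlapped although the RNA of HOXC8 and HOXC9 did not. The 500 kb on both sides of these clusters held 50 bins per cluster. All ULB libraries were below all GOM libraries in 9 for HOXA, 6 for HOXB and 2 for HOXC (9.17% of all bins). They were above in 3 for HOXB and in none for HOXA and HOXC (9.65% of all bins). For HOXA, 7 of the 9 lay on the side of SKAP2. On the side of HOXB1 the mean did not overlap, with 18.02 to 19.92 in GOM and 16.2 to 17.95 in ULB.

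**Figure D4:**
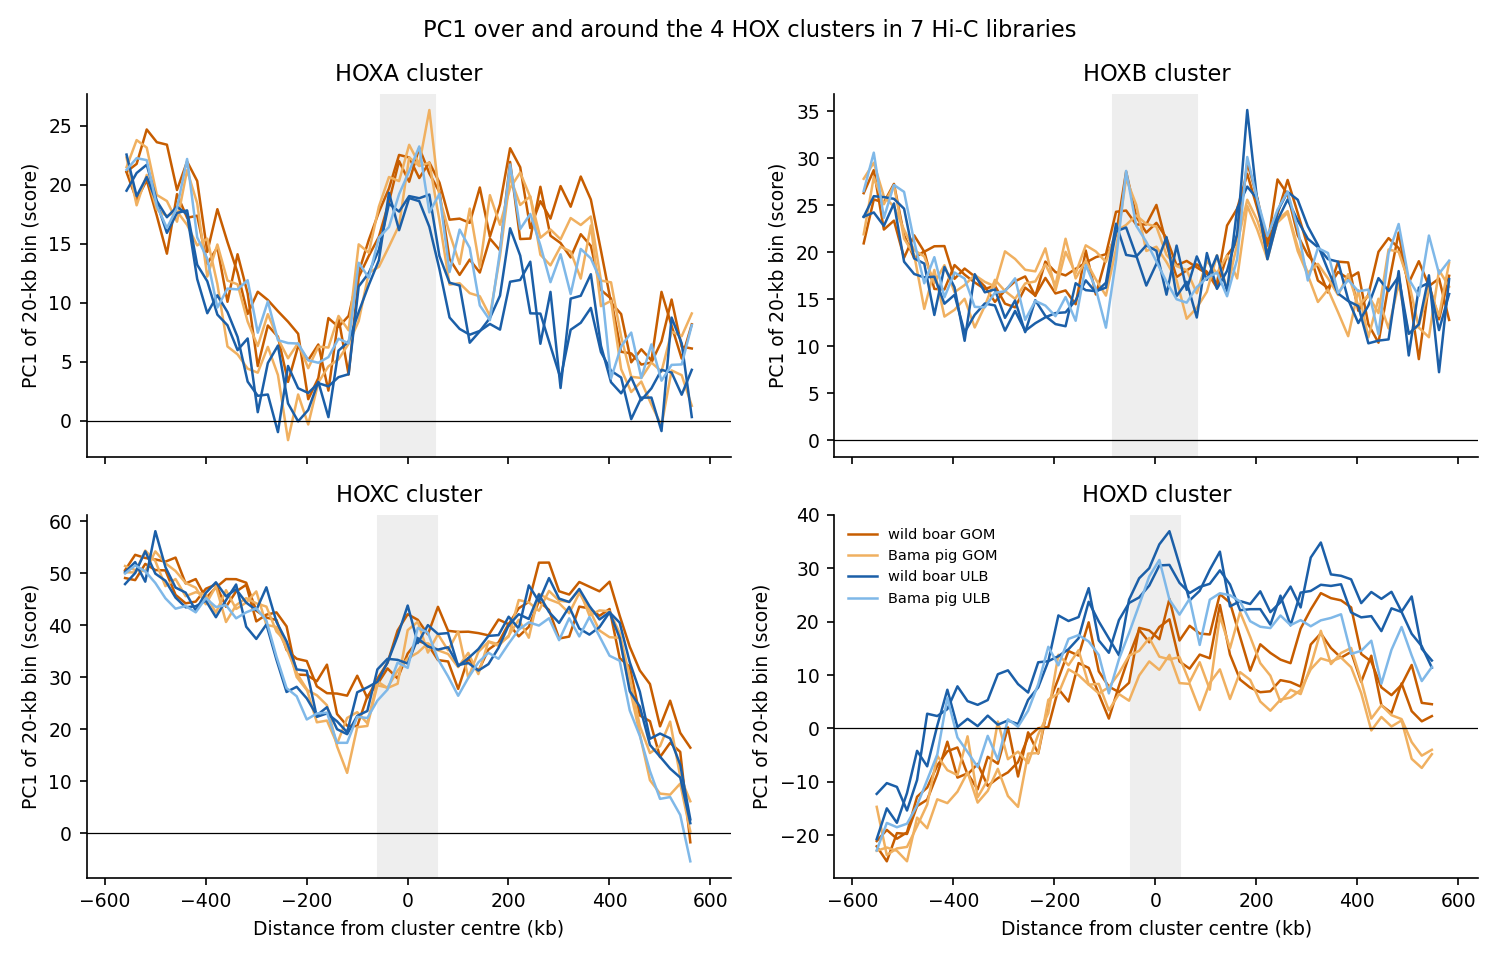
Lines give the PC1 score of each 20-kb bin in the 7 Hi-C libraries against the distance in kb from the centre of each HOX cluster, with the cluster shaded; orange lines are GOM and blue lines ULB, darker for wild boar and lighter for Bama pig. In the HOXD panel the blue lines run above the orange lines over the cluster and most of the 500 kb on each side. In the other panels they overlap in most bins, with some bins beside HOXA and HOXB where the blue lines lie below.

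Between breeds, cluster PC1 differed by -0.83 for HOXA, 0.47 for HOXB, 2.44 for HOXC and 6.72 for HOXD (wild boar minus Bama pig), with exact permutation p of 0.6286, 0.6857, 0.1143 and 0.2857. These differences and p ignore depot, and the breeds hold the depots in unequal shares. Within depots, a comparison added after the data were seen, HOXD differed by 4.80 in GOM and 4.55 in ULB, and every wild boar library was above every Bama pig library of the same depot. The breeds also did not overlap for HOXB in GOM (1.55), nor for HOXA (-1.96) and HOXC (2.84) in ULB. With 2 libraries against 2 in GOM and 2 against 1 in ULB, a lack of overlap often arises by chance. Its share over all bins was not counted, and no breed difference is drawn from it. The mean of both HOXD differences, 4.68, had p = 0.1111 (adjusted 0.4444 over the 4 clusters) in an exact two-sided permutation test within depots, whose smallest p is 0.05556. The means within depots were -0.69 for HOXA, 0.62 for HOXB and 2.54 for HOXC, with p of 0.5556, 0.3333 and 0.2778 in the same exact test. Over both depots, a single bin, in HOXC, had all wild boar libraries above all Bama pig libraries, beside 4.51% of all bins, and none had them all below, beside 4.38%.

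TADs, topologically associating domains, are stretches within which contacts are frequent, and the 4 deposited lists hold 1 set per breed and depot. They were called on merged replicates, so no replicate check was possible, and the Bama pig ULB list also merges a library not used here. HOXA, HOXB and HOXD were each divided by a TAD edge in all 4 lists, with the gene of paralog group 13 on one side and most of the cluster on the other. In HOXA the first TAD ended at 45380000 and the next began at 45400001, and the starts of HOXA10 and HOXA11 fell in the gap. In HOXB the first ended at 24880000 and the next began at 24920001, and in HOXD the first ended at 81900000. HOXD8 and HOXD3 lay on the same side in all lists, and the second TAD of Bama pig GOM began 1 bin later, at 81920001, which left the bin of HOXD9 to HOXD12 between TADs in that list. HOXB1 to HOXB8, as far as placed, shared a TAD in all 4 lists.

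HOXC lay in a TAD that began within the cluster, at 19180001, in Bama pig GOM and in ULB of both breeds. In wild boar GOM it began at 18960001 and held all 9 HOXC genes. Of the 56 starts and ends of TADs that overlap a HOX cluster, 52 had a counterpart within 40 kb in all 4 lists, beside 71.6% of all starts and ends, and the 4 that did not were the HOXC starts. The TAD edges at HOXA, HOXB and HOXD, by contrast, were all matched.

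**Figure D5:**
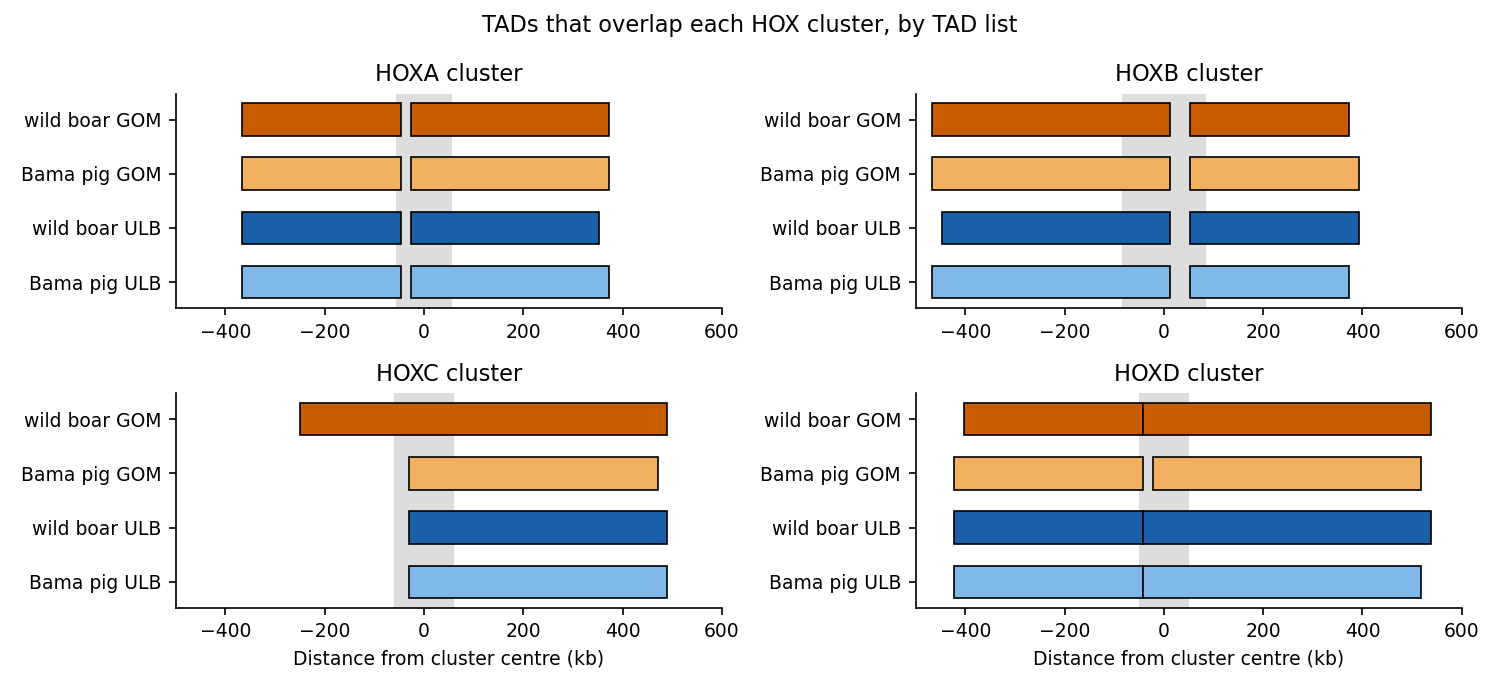
Bars give the TADs that overlap each HOX cluster in the 4 TAD lists, 1 row per breed and depot, against the distance in kb from the cluster centre, with the cluster shaded. The gap or joint inside the shaded area falls at the same place, within 20 kb, in all lists for HOXA, HOXB and HOXD, and the HOXC bar of wild boar GOM starts further to the left.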

How the data were processed

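RNA-seq and Hi-C of GOM and ULB were measured in 7 libraries each. The authors quantified the RNA with kallisto (0.43.0 in the submitters' processing notes) against Sscrofa11.1 and deposited an estimated count and a TPM per gene and library. From the Hi-C matrices, KR and quantile normalized, the authors made the deposited score of each 20-kb bin, its PC1, as well as TAD lists called on merged replicates. The score is named an A-B index there, but averages 0 on each chromosome and was read as PC1. Contact depths were not used here, so no interval was given for it.

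Groups came from the labels. Estimated counts were rounded and tested with edgeR 4.0.16 in R 4.3.3, with TMM, over all genes tested. The breeds in ULB, the interaction and the depots within a breed came from group means of all 7 libraries, with the lone Bama pig ULB library taken to vary like the others. DESeq2 1.42.0, other filters and scalings, a block and leaving out each library were alternatives. The fits were tested on simulated data. PC1 was tested by exact permutation with SciPy 1.17.1. TAD edges were matched within 40 kb. Symbols came from a gene name table (14821 of 21280 genes), positions and sequences from RefSeq.

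Members and gene lists were chosen with earlier results of these data known. Named members are those called, and the 3 of highest mean TPM per cluster. Genes without a symbol are not members, so a HOX gene that lacks one in that table was not analysed here. One member and 1 promoter are not reported here.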

Additional observations from a re-analysis of the deposited data

Results flagged for a closer look

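Each of 24 sets of 4 GOM libraries (the TPM of the named members, the summed TPM of each cluster and its mean PC1) was searched for a library far from the others, and 2 were found, where chance gives about 1 in 20. HOXB8 had a TPM of 6.24 in Bama pig GOM 1, and the other GOM libraries had 1.01 to 1.42. HOXC6 had a TPM of 5.51 in Bama pig GOM 1, and the others had 0.819 to 0.991. For HOXC6 this library reached past the 2.42 and 2.13 of wild boar ULB. Without it, HOXB8 kept its call, with an adjusted p of 0.0402 in edgeR's test. No HOX gene passed the test of a depot difference that differs between breeds.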

How the results depend on the processing

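The number of HOX genes called between depots was 7, and it was 11 with DESeq2 (6 higher in ULB, 5 in GOM), 2 with the wild boar libraries alone and from 2 to 6 when each library was left out. Over all genes it was 682, and 1363 with DESeq2, 318 with the wild boar libraries alone and from 249 to 722 when each library was left out. DESeq2 added HOXB2, HOXC6, HOXD4 and HOXD9. No HOX gene was called between breeds or for the interaction under any alternative. Leaving out the Bama pig ULB library left 2 calls among HOX genes and 249 in all, and leaving out wild boar GOM 1, wild boar ULB 1 or wild boar ULB 2 left 4 each, with 374, 291 and 359 in all.

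Some small values changed sign. HOXA3 had a log2 fold change of 0.02 with the replicate block and from -0.948 to 0.059 with libraries left out in turn. HOXA5 had 0.033 with the wild boar libraries alone and from -0.306 to 0.019 with libraries left out in turn. For summed TPM, the log2 ratio of ULB to GOM ran over these omissions from -0.321 to 0.118 for HOXA, from -1.417 to 0.135 for paralog group 3, from -0.187 to 0.258 for group 4, from -0.042 to 1.422 for group 10 and from -2.368 to 0.346 for group 13. The depot difference in HOXC PC1, 0.22, was -0.33 with PC1 centred on its chromosome, -0.70 with 100 kb added on each side, -0.40 as a median, and from -0.93 to 1.42 over the omissions. The breed differences of HOXA and HOXB ran from -1.51 to 0.11 and from -0.04 to 1.09 over them, and the depot difference of HOXD from 10.99 to 14.4. With TAD edges matched at 0 kb, 24 of 56 were shared. The cause of these changes was not tested.

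Both depots came from the same pigs, but no source used here says whether a replicate number marks the pig. Deviations of same-numbered libraries correlated at 0.176 between the wild boar depots and at 0.185 between GOM of the breeds, which share no animal, so these values do not show that the number marks the pig. With the number of each breed as a replicate block, 6 HOX genes and 667 of all genes were called, and HOXB4 was the call lost among HOX genes.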
